A study of Mus musculus with 4 samples.

Results

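Tuft cells are rare chemosensory cells of the airway epithelium, also called brush cells. They sense small molecules with proteins of the taste pathway, in which a G protein activates phospholipase C, the inositol trisphosphate receptor releases calcium from stores and the cation channel Trpm5 opens. They are known in the mouse trachea for acetylcholine synthesis by Chat, for leukotriene synthesis and for the cytokine Il25, and their formation needs the transcription factor Pou2f3.

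The cells came from 4 libraries of mouse tracheal cells, 1 per genotype, all on the 129S6/SvEvTac strain. The genotypes were bgh (mutated Spef2), Cfap54gt/gt (gene-trapped Cfap54), nm1054 (lacking Cfap221) and wild-type, which are models of primary ciliary dyskinesia and their control. Each library pooled tracheas of mice aged 5 to 8 months, 5 tracheas for bgh and 6 for each of the others. The deposited cell barcodes carry a library number from 1 to 4 that no source used here ties to a genotype, so the libraries are described by number and no genotype was compared.

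A tuft cell was a cell with 300 or more genes, at most 20% mitochondrial UMIs (unique molecular identifiers, each standing for 1 captured transcript), at least 3 of the 6 genes Trpm5, Pou2f3, Avil, Gng13, Rgs13 and Gnat3 detected, and Scgb1a1, the club cell secretoglobin, under 5% of its UMIs. This took 269 of 20359 filtered cells, or 1.32% (95% exact Clopper-Pearson interval 1.17% to 1.49%), and the 20090 others are called other cells. All intervals cover counting error only. The cells were thus chosen by the measured UMIs of the 6 gate genes and Scgb1a1, whose values are given as description.

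Tuft cells made up 0.919% of library 1 (35 of 3808 cells, interval 0.641% to 1.28%) and 1.16% of library 2 (46 of 3955, 0.853% to 1.55%). They made up 1.59% of library 3 (114 of 7156, 1.32% to 1.91%) and 1.36% of library 4 (74 of 5440, 1.07% to 1.70%). Library 3 lay above library 1 with intervals that did not overlap, and every other pair of intervals overlapped. Pronase digestion, plating and dead cell removal came before loading, and their part in these shares was not tested. Libraries 1 to 4 gave 429831, 664595, 824342 and 582170 UMIs from tuft cells. The median tuft cell had 5463 UMIs and 2401 genes, against 6724.5 UMIs and 1877 genes for other cells, and mitochondrial UMIs had medians of 6.66% in tuft cells and 4.46% in other cells. Libraries shared 52 barcode sequences with another library, and 1 tuft cell carried such a sequence.

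**Figure D1:**
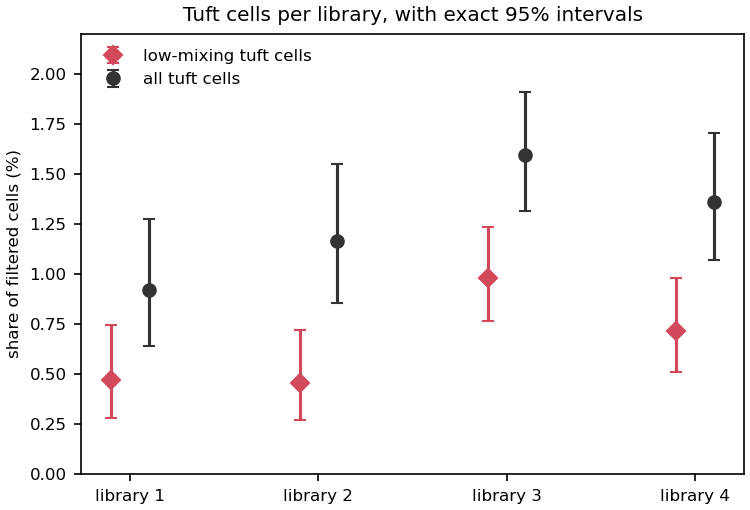
Share of filtered cells (vertical axis, percent) that were tuft cells in each of the 4 libraries, for low-mixing tuft cells (diamonds) and all tuft cells (circles), with exact 95% intervals as bars. All tuft cells ran from 0.919% in library 1 to 1.59% in library 3, and low-mixing tuft cells from 0.455% in library 2 to 0.978% in library 3.

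The gate left few cells at its edge on marker number. Tuft cells had a median of 32 gate UMIs (4 to 217). Exactly 3 gate genes were found in 6 of them (median 8.5 gate UMIs, 1945.5 UMIs in all), while 39, 110 and 114 had 4, 5 and 6. Just outside, 34 cells had 2 gate genes at a median of 2 gate UMIs in 18177.5 UMIs. The edge on Scgb1a1 was less clear: 14 tuft cells had 4% to 5% Scgb1a1 (median 23 gate UMIs) and 11 excluded cells had 5% to 6% (median 20 gate UMIs). In all, 148 cells with 3 or more gate genes were excluded for Scgb1a1, at a median of 19317.5 UMIs.

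Many tuft cells also carried transcripts of other epithelial cells. Markers of basal, secretory and ciliated cells, 24 genes together, held under 0.5% of the UMIs in 145 tuft cells, called low-mixing here, and 0.5% or more in the other 124, called mixed. This limit was chosen after the data were seen. Secretory markers summed to 1585 CPM (UMIs added over the cells of a library, then put on a common total) in low-mixing cells and 130037 CPM in mixed cells, and to 79826 to 123146 CPM over all tuft cells of a library, against 245049 to 262119 CPM in other cells. The 6 gate genes summed to 10312 CPM in low-mixing cells and 1863 CPM in mixed cells, and to 1657 to 5364 CPM over all tuft cells of a library, against 16.2 to 34.8 CPM in other cells. Low-mixing cells were shallower, with a median of 3741 UMIs against 13034.5 UMIs in mixed cells. Of the cells with the highest doublet scores, 15 were tuft cells, 1 low-mixing and 14 mixed, which is 5.58% of tuft cells against 4.59% of other cells. Whether mixed cells are doublets, cells with free RNA or cells of 2 programs was not tested, and results are given for low-mixing cells beside all tuft cells.

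**Figure D2:**
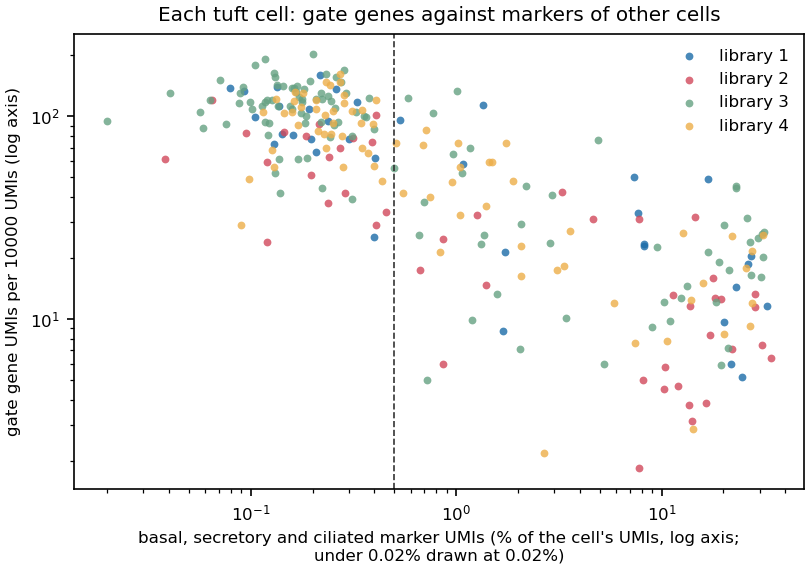
Each point is 1 of the 269 tuft cells, coloured by library, with the share of its UMIs from 24 basal, secretory and ciliated markers (horizontal, percent, log axis) and its gate gene UMIs per 10000 UMIs (vertical, log axis). The dashed line marks 0.5%, with 145 low-mixing cells to its left and 124 mixed cells, which reach lower gate values, to its right.

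Each gene was compared between tuft cells and other cells of the same library, as the log2 ratio of summed CPM with 10 CPM added to both, and counted where the ratio was at least 1, or at most -1, in all 4 libraries. Genes were tested where the mean CPM of the 2 kinds of cells was at least 10, so a gene low in other cells could enter only through tuft cells. Of 7746 tested genes outside the gate, 276 were higher in tuft cells (3.56%) and 6 were lower (0.0775%). In low-mixing cells, 974 of 8053 tested genes were higher (12.1%) and 395 lower (4.91%), with the 24 marker genes left out. Of the 276 genes, 273 were also higher in low-mixing cells. The median log2 ratio over all tested genes was 0.31 for all tuft cells and 0.39 for low-mixing cells. These counts come from the cells the rule chose and carry no test.

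The widest ratios belonged to signalling genes. Lrmp, a membrane protein of the endoplasmic reticulum first described in lymphocytes, had 1503, 730, 1783 and 1926 CPM in tuft cells of libraries 1 to 4, against 4.79, 10.3, 9.83 and 4.19 CPM in other cells. Its log2 ratios were 5.18 to 7.09, and 268 of the 269 tuft cells held a UMI of it. Gnb3, the beta subunit of the taste G protein, had 724, 331, 1399 and 983 CPM in tuft cells, against 2.66, 3.02, 6.13 and 1.14 CPM in other cells. Both genes were picked for their ratios to other cells, and library 2 had the lowest tuft sum of each. The 25 genes with the highest smallest ratio also included the ion pump regulator Fxyd6, the calcium pump Atp2a3, the calmodulin-binding Nrgn, the selenoprotein Selenom, the homeobox factor Hmx2 and the ETS factor Etv1. The smallest ratio of any of the 25 was 2.83, in Ptgs1, and all 25 were also higher in low-mixing cells.

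**Figure D3:**
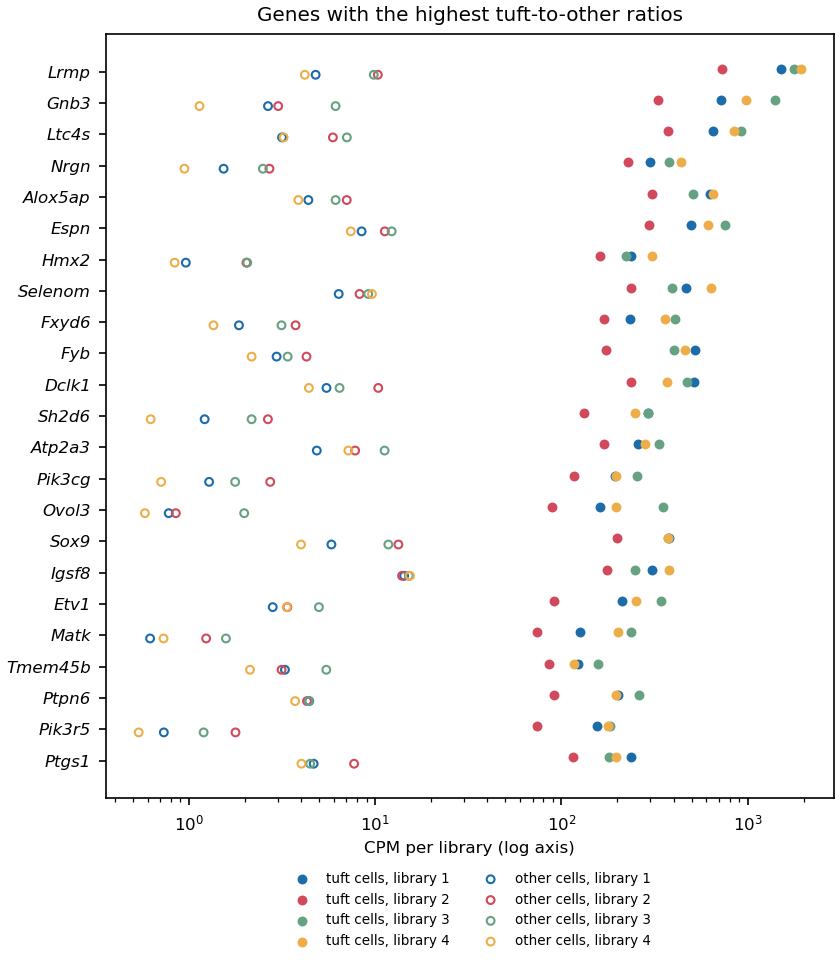
CPM (log axis) of 23 of the 25 genes with the highest smallest log2 ratio, in tuft cells (filled points) and other cells (open points) of each library. The genes were chosen by these ratios, so higher tuft values follow from the choice. Library 2 has the lowest tuft value in each.

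The 6 lower genes included Sftpb (a surfactant protein), Hp (haptoglobin), Selenbp1, S100g and the secretoglobin Scgb3a2. Selenbp1 had 209, 184, 183 and 347 CPM in tuft cells, against 519, 466, 666 and 855 CPM in other cells. In low-mixing cells it had 21.1 CPM, against 293 CPM in mixed cells. Hp had 0 CPM in low-mixing cells and 44.0 CPM in mixed cells, so most UMIs of both genes in tuft cells came from mixed cells. The 6 calls depended on the rule's limit on Scgb1a1: with no limit, 1 of the 6 genes was still counted as lower.

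Of the taste cascade beyond the gate, 10 of 10 genes were tested, with a median log2 ratio of 1.77 (0.31 over all tested genes). Against 3.56% of all tested genes, 5 of the 10 were higher in tuft cells. They were Gnb3, the G protein regulator Rgs2, the inositol trisphosphate receptor Itpr2, the phospholipase Plcg2 and the G protein subunit Gnai2. Plcb2, the taste phospholipase, had 7, 6, 31 and 34 UMIs, or 16.3, 9.03, 37.6 and 58.4 CPM, in tuft cells of libraries 1 to 4, against at most 0.309 CPM in other cells. Its log2 ratio of 0.88 in library 2 missed the limit. In low-mixing cells Plcb2 and the receptor Itpr3 were both counted as higher, for 7 of 10, against 12.1% of all tested genes there. Itpr2 and Itpr3 had 172, 60.2, 118 and 127 CPM and 32.6, 46.6, 82.5 and 77.3 CPM in tuft cells. The beta subunit Gnb1 had log2 ratios of 0.37 to 0.58 and the channel Trpm4 of -0.05 to 0.26.

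Receptors were sparse. Among 38 features for taste receptors, 20 had 0 UMIs in tuft cells and none was tested. The sweet and umami subunit Tas1r3 had 7, 2, 20 and 6 UMIs and the bitter receptor Tas2r108 had 8, 5, 11 and 4 UMIs in tuft cells of libraries 1 to 4, and both were counted as higher in low-mixing cells. The succinate receptor Sucnr1 had 11, 6, 47 and 7 UMIs, or 25.6, 9.03, 57.0 and 12.0 CPM, in tuft cells, against 0.0458, 0.103, 0.305 and 0.0430 CPM in other cells. It was detected in 42 tuft cells and missed the limit in library 2 (log2 0.91). The adhesion receptor Adgrg2 was higher (log2 1.01 to 2.13). The fatty acid receptors Ffar2 and Ffar3, Oxgr1, Fpr1, Gpr37 and Vmn2r26 had 0 of 2500938 UMIs, which allows up to 3 UMIs, or 1.20 CPM.

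Of the genes for lipid mediators, 13 of 17 were tested and 4 were higher, against 3.56% of all tested genes. The median log2 ratio was 0.63 over the tested members and 0.037 over all 17. All 4 act in leukotriene or prostaglandin synthesis. Ltc4s, which makes leukotriene C4, had 649, 372, 924 and 840 CPM in tuft cells, against 3.16, 5.93, 7.05 and 3.23 CPM in other cells. Alox5ap, the partner protein of 5-lipoxygenase, had 626, 305, 508 and 653 CPM in tuft cells, against 4.38, 7.04, 6.13 and 3.87 CPM in other cells. Alox5, the lipoxygenase itself, had 97.7, 45.1, 110 and 120 CPM in tuft cells and at most 0.877 CPM in other cells. The lowest tuft value of each of the 3 was in library 2. The cyclooxygenase Ptgs1 was higher (log2 2.83 to 4.06), whereas Ptgs2 had log2 ratios of -1.22 to -0.92. The prostaglandin D synthase Hpgds and the glutathione transferase Mgst3 were counted as higher in low-mixing cells, for 6 in all (12.1% of all tested genes there). Lta4h, which makes leukotriene B4, had log2 ratios of 0.01 to 0.33, and the thromboxane synthase Tbxas1 had 0 UMIs.

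Of 11 genes of type 2 immunity, 7 were tested and 3 were higher, against 3.56% of all tested genes. The median log2 ratio was 1.28 over the tested members and 0.997 over all 11. Il25, the cytokine by which tuft cells act on innate lymphoid cells, had 17, 32, 71 and 21 UMIs, or 39.6, 48.1, 86.1 and 36.1 CPM, in tuft cells, against 0.138, 0.619, 0.610 and 0.151 CPM in other cells. It was detected in 99 tuft cells. Its own receptor subunit Il17rb and the interleukin 13 receptor Il13ra1 were also higher, at log2 1.54 to 2.03 and 1.15 to 1.91. The receptors Il4ra and Il10rb were added in low-mixing cells, where Tnfaip3, an inhibitor of NF-kappa B signalling, was lower. The cytokines Tslp and Il33 had 5 UMIs and 1 UMI.

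Chat, which makes acetylcholine, had 14, 12, 30 and 20 UMIs, or 32.6, 18.1, 36.4 and 34.4 CPM, in tuft cells, against 0.0917, 0.258, 0.190 and 0.0645 CPM in other cells. It was higher at log2 1.45 to 2.19 and was found in 62 tuft cells. With each cell thinned to 2000 UMIs, 11.9% of 252 tuft cells and 0.023% of 17401 other cells held a Chat UMI. The choline transporter Slc5a7, the vesicle transporter Slc18a3, the esterase Ache and the receptor subunit Chrnb4 had 0 of 2500938 UMIs in tuft cells. Chrm3 was the only other tested gene of this list of 6, at log2 ratios of -0.19 to 0.62.

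**Figure D4:**
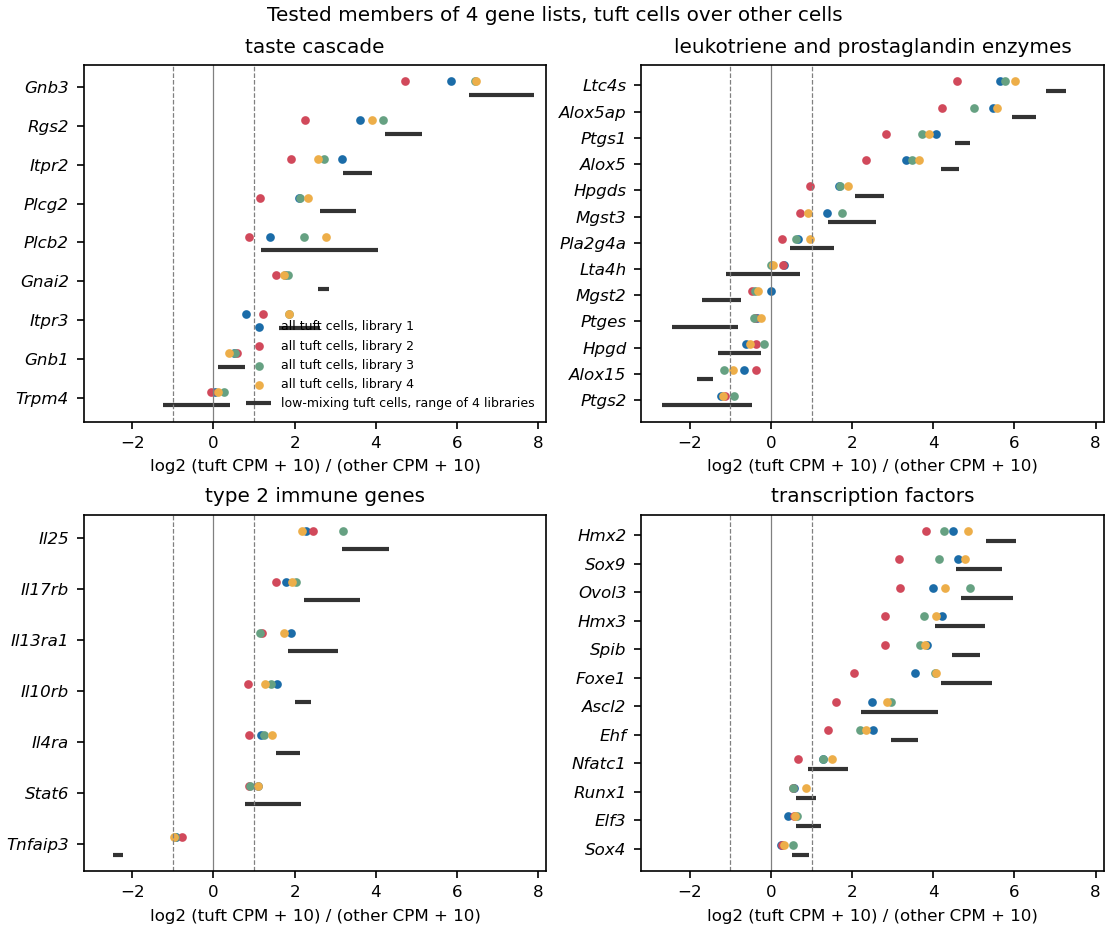
Log2 ratio of tuft over other cells with 10 CPM added (horizontal) for tested members of 4 gene lists (1 taste cascade gene is not shown), with 1 point per library for all tuft cells and a bar for the range over libraries in low-mixing tuft cells. Dashed lines mark -1 and 1. Gnb3, Ltc4s, Il25 and Hmx2 head their lists, and the bars of the genes at the top lie to the right of most of the points.

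Among 13 measured transcription factors, the median log2 ratio was 2.95 over the 12 tested and 2.47 over all 13. Counted as higher were 8, against 3.56% of all tested genes. These were the homeobox factors Hmx2 and Hmx3, Sox9, Spib, Ovol3, Foxe1, Ascl2 and Ehf. Spib, an ETS factor of lymphoid and myeloid cells, had 144, 69.2, 129 and 141 CPM in tuft cells, against 0.688, 1.24, 0.933 and 0.817 CPM in other cells. Ehf, an epithelial ETS factor, was high in both kinds of cells, at 491, 232, 534 and 620 CPM in tuft cells, against 78.2, 81.9, 109 and 114 CPM in other cells. Elf3, Sox4, Runx1 and Nfatc1 stayed within the limits in at least 1 library, and Gfi1b, with 14 UMIs, was not tested.

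Genes best known from blood cells formed the most complete list. Of 19 measured, the median log2 ratio was 3.71 over the 15 tested and 3.41 over all 19. All 15 tested genes were higher, against 3.56% of tested genes of any kind. They included the kinases Lyn, Bmx, Matk and Fes, the adaptors Sh2d6 and Sh2d7, the phosphatases Inpp5d, Ptpn6 and Ptpn18, the exchange factor Vav1, the lipid kinase subunits Pik3cg and Pik3r5, and Lrmp and Alox5ap. Matk had 126, 73.7, 235 and 201 CPM in tuft cells, against 0.619, 1.24, 1.58 and 0.731 CPM in other cells. The 4 untested genes were low: Ptprc, the common leukocyte antigen, had 20 UMIs, the kinase Syk 4, and Plek and Bin2 0. Because a gene low in other cells could be tested only if tuft cells carried it, the 15 of 15 is a description of the tested genes.

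Defining markers of blood cells were at or near 0 beside this list. T and NK cell markers had 0 UMIs for 8 of 8 genes, against sums of 2.22 to 6.51 CPM in other cells. Of 6 B cell markers, Cd79b had 25 UMIs and the other 5 had 0, and sums were 7.52 to 13.7 CPM in tuft cells against 0.550 to 1.19 CPM in other cells. Of 10 mast cell and basophil markers, 8 had 0 UMIs, including Cpa3, Tpsb2, Mcpt8 and Fcer1a. Kit, the stem cell factor receptor, was the exception, with 69.8, 39.1, 64.3 and 77.3 CPM in tuft cells, against 3.14, 2.94, 3.54 and 2.88 CPM in other cells. Macrophage markers summed to 861 to 5160 CPM in tuft cells, against 2020 to 4230 CPM in other cells. Their sum was 24.4 CPM in low-mixing cells and 3483 CPM in mixed cells, most of it Lyz2, and C1qa, C1qb, Adgre1 and Cx3cr1 had 0 UMIs.

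Brush and cytoskeleton genes were fewer. Of 14 genes, 11 were tested and 4 were higher, against 3.56% of all tested genes. Among the 4 were the kinase Dclk1, a tuft cell marker of the intestine, the actin bundler Espn and the adaptor Fyb. Dclk1 had 517, 236, 471 and 368 CPM in tuft cells, against 5.48, 10.4, 6.44 and 4.41 CPM in other cells. The keratins Krt8 and Krt18 were abundant in both, and Krt8 had log2 ratios of 0.01 to 0.28. Ezr, the membrane-actin linker ezrin, was lower in low-mixing cells, at 229 CPM, against 950 CPM in mixed cells.

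Early response and heat shock genes had a median log2 ratio of -0.70, with 0 of 15 tested genes past the limit for all tuft cells. In low-mixing cells 7 were lower, against 4.91% of all tested genes there. The transcription factor gene Fos had 35.8 CPM in low-mixing cells, 138 CPM in mixed cells and 282 CPM in other cells, and the chaperone Hspa1a had 71.5, 239 and 580 CPM. The mitochondrial genes mt-Co1, mt-Co2 and mt-Co3 were higher in low-mixing cells, where mitochondrial UMIs had a median of 8.45%. The water channel Aqp5 had 3.25 CPM in low-mixing cells, 350 CPM in mixed cells and 519 CPM in other cells. Of 8 proliferation genes, none was tested, and 4, Mki67 among them, had 0 UMIs in tuft cells. Summed, the 8 genes had 19.5 CPM in low-mixing cells, 4.24 CPM in mixed cells and 21.0 CPM in other cells. Of the genes mutated in the study, Cfap54 had 11, 0, 29 and 14 UMIs in tuft cells of libraries 1 to 4. Spef2 had 16, 31, 35 and 24 UMIs there and Cfap221 had 1, 2, 0 and 0 UMIs. Summed, the 3 genes had 65.2 CPM in all tuft cells and 61.6 CPM in other cells. Their sum was 8.13 CPM in low-mixing cells and 83.8 CPM in mixed cells.

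Tuft cells were then set against cells that share their rarity or their origin. The neuroendocrine gate, by the same kind of rule, held 145 cells, the ionocyte gate 63 and basal cells 1009. Against these, 148 of 8248 (1.79%), 205 of 8091 (2.53%) and 534 of 8015 (6.66%) tested genes were higher in tuft cells, and 94 (1.14%), 101 (1.25%) and 266 (3.32%) were lower. The 534 genes higher than in basal cells included 12 of the 24 basal, secretory and ciliated markers that define mixing, such as Bpifa1 (log2 ratios 3.06 to 4.94) and Scgb3a1 (4.04 to 6.98). They also included the lysozyme gene Lyz2 at 2.83 to 6.26, which was at -2.42 to -0.43 in low-mixing cells. Low-mixing cells had 524 of 8484 (6.18%), 624 of 8331 (7.49%) and 821 of 8156 (10.1%) tested genes higher than these 3 kinds of cells, which were not themselves filtered on mixing, and 485 (5.72%), 490 (5.88%) and 458 (5.62%) lower. Of the genes counted as higher in all tuft cells, 146 of 148, 200 of 205 and 323 of 534 were also higher there. The 24 markers, 12 of them among the 534, were left out of the low-mixing counts and so could not be among the 323. Of the 276 genes higher than in other cells, 133 (48.2%) were also higher than in the neuroendocrine gate, 168 (60.9%) than in the ionocyte gate and 201 (72.8%) than in basal cells, and 101 (36.6%) passed all 3. Il25, Chat, Gnb3, Hmx3 and Spib had 0 CPM in all 3 of these kinds of cells. Of the 25 genes named above, 23 were higher against all 3. The exceptions were Tmem45b, at a mean of 62.5 CPM in the neuroendocrine gate, and Sox9, at a mean of 71.3 CPM in basal cells. Kit was not past the limit against either rare kind, with log2 ratios of 0.96 to 2.22 against the neuroendocrine gate and 0.22 to 1.26 against the ionocyte gate. Of the taste cascade genes counted as higher than in other cells, Gnb3 alone was higher than in all 3 kinds. Plcg2 (log2 -0.43 to 0.33) and Itpr2 (-0.40 to 0.88) were not past the limit against the ionocyte gate. Rgs2 was not past it against basal cells (0.86 to 3.43), and Gnai2 against none of the 3. In low-mixing cells Rgs2 and Gnai2 were higher than in all 3.

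Few tuft cells carried the neuroendocrine peptide gene Calca. It had 54, 5, 31 and 1 UMIs in tuft cells of libraries 1 to 4, all in 9 cells. The 6 genes of the neuroendocrine gate together were found in 77 tuft cells. Their sums were 25.8 to 282 CPM in tuft cells of a library, against 33.7 to 51.4 CPM in other cells. The sum was 327 CPM in low-mixing cells and 71.1 CPM in mixed cells. Scg5, 1 of the 6, was higher than in the ionocyte gate and basal cells (log2 1.02 to 2.17) and lower than in the neuroendocrine gate (-3.50 to -2.62). The gates overlapped in 8 cells for tuft and neuroendocrine genes and in 1 cell for tuft and ionocyte genes.

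The tuft cells fell into 7 clusters, which shared much of their order with mixing. Cluster 1 (77 cells, led by Gnb3, Gng13, Etv1 and Foxe1), cluster 2 (48 cells, led by Ly6d, Il13ra1 and Alox5ap) and cluster 7 (22 cells, led by Otos, Rgs21 and Gnb3) held 76, 43 and 21 low-mixing cells. Cluster 7 took 15 of its cells from library 3 and 0 from library 2. The other 4 were led by genes of other cells or by mixtures of them: cluster 3 by eGFP and ciliated genes, cluster 4 by the mucosal genes Tff2 and Muc5b, cluster 5 by Scgb1a1 and cluster 6 by Calcb, Sprr1a and Krt14. They held 34, 33, 31 and 24 cells, of which 1, 0, 0 and 4 were low-mixing. Nearly all Tff2 UMIs in tuft cells came from 1 cell, as given below, so Tff2 does not describe cluster 4 as a whole. Cluster 5 had a median of 24961 UMIs and 8 of the 15 tuft cells with the highest doublet scores.

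Airway and intestinal tuft cells have been divided into tuft1 cells, with more of the sensory genes, and tuft2 cells, with more of the immune genes. For each cell the UMIs of 8 tuft1 markers were taken as a share of those of 8 tuft1 and 10 tuft2 markers. Among low-mixing cells, 21 had under 10% tuft1 markers and 33 had 70% to 80%. A cut at 50% put 97 low-mixing cells on the tuft1 side and 48 on the tuft2 side, with 12 and 9 of them within 10 points of the cut. The sides are ranges of a score, not types. The tuft1 side took 55.6% of the low-mixing cells in libraries 1 and 2 (10 of 18 each, exact interval 30.8% to 78.5%), 78.6% in library 3 (55 of 70, 67.1% to 87.5%) and 56.4% in library 4 (22 of 39, 39.6% to 72.2%). All these intervals overlapped. Tuft1-side cells had a median of 4324 UMIs and 9.99% mitochondrial UMIs, against 2473.5 UMIs and 6.00% on the tuft2 side, and the part of depth in the split was not tested.

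**Figure D5:**
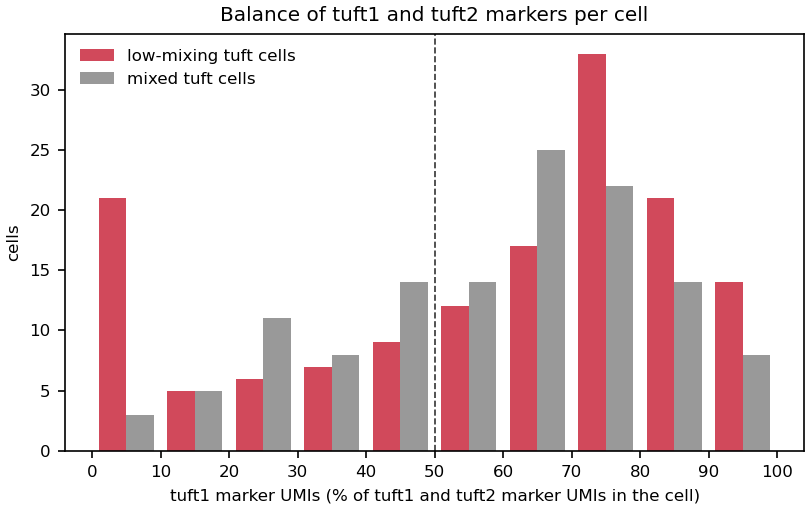
Number of tuft cells (vertical) by the share of tuft1 among tuft1 and tuft2 marker UMIs in the cell (horizontal, percent, bins of 10), for low-mixing and mixed cells, with a dashed line at the 50% cut. Low-mixing cells had 21 cells in the lowest bin and 33 in the bin from 70% to 80%, while mixed cells had their highest bin, 25 cells, from 60% to 70%.

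Outside the 18 markers that made the split, 3426 genes were compared between the sides, with 50 CPM added, and few passed a log2 ratio of 1 in all 4 libraries: 4 on the tuft1 side (0.117%) and 7 on the tuft2 side (0.204%). Otos, a gene known from the inner ear, had 324 UMIs on the tuft1 side and 0 on the tuft2 side. It was found in 36 of the 97 tuft1-side cells, at 1773, 344, 641 and 243 CPM in libraries 1 to 4, and was at least 33.7-fold higher there, with the tuft2 side set to 3 UMIs in all. The integrin subunit Itgb7 had 181 UMIs (386 CPM) on the tuft1 side and 9 (61.5 CPM) on the tuft2 side. Igfbp5 and the fatty acid transporter Cd36 were the other 2. Ly6d, a membrane protein of the Ly6 family, had 13.9, 215, 172 and 126 CPM on the tuft1 side, against 1515, 1392, 1497 and 1417 CPM on the tuft2 side, with log2 ratios of -4.62 to -2.45. The other 6 tuft2-side genes were Gm4952, the peptidoglycan-binding Pglyrp1, the proteoglycan Sdc4, Mllt3, the immunoproteasome subunit Psmb8 and Rnaseh2c. In mixed cells, which took no part in choosing these genes, the same direction was seen for 4 of 4 tuft1-side genes and 6 of 7 tuft2-side genes, all but Rnaseh2c (log2 0.13), while 53.7% of tested genes were positive there. Ratios were smaller there, at 0.43 to 0.62 for the 4 genes and -1.08 (Ly6d) to -0.14 (Psmb8) for the 6. The mixed cells came from the same libraries and were split by the same markers. Psmb8 rested on 14 and 19 UMIs on the tuft1 and tuft2 sides, and Rnaseh2c on 19 and 25.

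Genes of the pathways above were mostly on both sides. Ltc4s had 2016 CPM on the tuft1 side and 1729 CPM on the tuft2 side, Il25 126 and 150 CPM, and Chat 85.4 and 54.7 CPM. The sign of the log2 ratio differed between libraries for each of these. Trpm5 and Gng13 are gate genes, so the rule itself favoured their presence on both sides, and their values are description. Trpm5 had 858 and 868 CPM, with a sign that differed between libraries. Gng13 had 3905 CPM on the tuft1 side and 1729 CPM on the tuft2 side, with log2 ratios of 0.97 to 1.08. Sucnr1 had 52 UMIs on the tuft1 side, of 468635 in all, and 2 on the tuft2 side, of 146366 in all. Dclk1 had 608 and 1264 CPM, with log2 ratios of -1.81 to -0.74, so it lay lower on the tuft1 side in every library.

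Within tuft cells, libraries were compared by CPM with exact Poisson intervals, and a gene was counted as apart where the highest over the lowest library was at least 2 and their intervals did not overlap. Of 3768 genes with at least 100 UMIs, 666 were apart (17.7%), and of 1012 such genes in low-mixing cells, 129 were apart (12.7%). Of the 666 genes, 156 had enough UMIs to be compared in low-mixing cells, and 59 were apart in both sets. Library 2 was the lowest in 322 of the 666. It was also the highest in 204, against 78, 201 and 183 for libraries 1, 3 and 4. The median tuft cell of library 2 had 2.34% of its UMIs from markers of other cells, against 0.258% to 0.403% in the other libraries. Gnb3 was lowest in library 2 also among low-mixing cells, at 2003, 1006, 3090 and 2633 CPM in libraries 1 to 4. With 1 library per genotype, a difference between libraries cannot be told apart from one between genotypes or between preparations.

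Several of the widest ratios rested on single cells. Tff2 had 4, 9, 18 and 17387 UMIs in tuft cells of libraries 1 to 4, and 99.8% of them came from 1 cell. Dcpp3 and Dcpp1 had all of their 610 and 117 UMIs in 1 cell of library 4. Of the 666 genes, 8 had more than 50% of their UMIs in 1 cell. Others followed the library as a whole, with the same ratio at 2 or more in other cells for 40 genes. The acyl-CoA-binding gene Dbi had 119, 131, 0 and 154 UMIs in tuft cells, and other cells had 174, 168, 0 and 169 CPM. The feature eGFP had 128, 82, 0 and 133 UMIs in tuft cells, and other cells had 348, 134, 0 and 346 CPM. Both were at 0 in library 3 in tuft cells and in other cells. Tpm3-rs7 had 1, 58, 51 and 1 UMIs in tuft cells, and other cells had 3.35, 46.0, 50.8 and 2.95 CPM.

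Of the genes higher than in other cells, 128 were among the 666. Otos had 138, 32, 206 and 47 UMIs in tuft cells, or 321, 48.1, 250 and 80.7 CPM, and at most 0.629 CPM in other cells. Foxe1 had 119, 43.6, 195 and 175 CPM in tuft cells, against 1.05, 3.02, 2.38 and 1.10 CPM in other cells. Among low-mixing cells Otos had 1187, 215, 559 and 170 CPM and Foxe1 had 297, 228, 442 and 471 CPM, and both were apart there too.

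Pou2f3, 1 of the gate genes, belongs to the POU family of factors, which bind an octamer, ATGCAAAT. The octamer was searched on both strands (ATGCAAAT or its reverse complement ATTTGCAT), as the only motif, in 300-base windows from 250 bases before to 50 bases after gene starts (RefSeq, GRCm38.p6). It was in the windows of 12 of 209 matched genes higher in tuft cells (5.74%) and of 93 of 6025 tested genes not higher (1.54%). Of all 27025 genes with a window, 532 held it (1.97%), a gene being counted if any of its windows did. Among low-mixing cells' higher genes it was in 28 of 772 (3.63%). None of the 18 matched genes of the 25 named above and none of 5 matched gate genes held it. A match describes letters and not a site that is bound. The 3 genes with the highest smallest ratio among the 12 are shown, and each held 2 octamers. The 250 bases before each start are printed, 5′ to 3′ on the gene's strand, with the octamers in capitals.
Zfp428: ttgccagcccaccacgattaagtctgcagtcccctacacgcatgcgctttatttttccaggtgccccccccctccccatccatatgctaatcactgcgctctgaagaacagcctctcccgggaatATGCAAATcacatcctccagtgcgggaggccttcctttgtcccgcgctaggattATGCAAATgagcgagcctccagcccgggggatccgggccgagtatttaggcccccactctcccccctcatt
1810046K07Rik: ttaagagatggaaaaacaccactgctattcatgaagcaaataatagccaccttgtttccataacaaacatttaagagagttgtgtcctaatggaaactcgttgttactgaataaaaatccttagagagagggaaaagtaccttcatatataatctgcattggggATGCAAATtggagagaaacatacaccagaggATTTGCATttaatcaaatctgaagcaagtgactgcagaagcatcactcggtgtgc
Ly6g6d: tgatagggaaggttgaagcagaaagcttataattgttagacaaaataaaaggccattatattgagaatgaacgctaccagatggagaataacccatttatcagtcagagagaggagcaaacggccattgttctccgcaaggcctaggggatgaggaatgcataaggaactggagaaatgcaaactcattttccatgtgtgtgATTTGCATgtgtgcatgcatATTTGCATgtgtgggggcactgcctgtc
The printed bases of Zfp428 lay at chr7:24506837-24507086 on the + strand, with octamers starting 125 and 71 bases before the gene's start. Those of 1810046K07Rik lay at chr9:51328919-51329168 on the - strand, with octamers starting 86 and 55 bases before it. Those of Ly6g6d lay at chr17:35081240-35081489 on the - strand, with octamers starting 48 and 28 bases before it. Zfp428, a zinc finger gene, had 202, 143, 284 and 249 CPM in tuft cells of libraries 1 to 4, against 13.4, 13.4, 16.5 and 13.6 CPM in other cells. The gene 1810046K07Rik had 81.4, 39.1, 124 and 87.6 CPM in tuft cells, against 0.435, 1.08, 0.686 and 0.301 CPM in other cells. Ly6g6d, of the Ly6 family, had 46.5, 25.6, 29.1 and 36.1 CPM in tuft cells, against 2.27, 2.04, 1.03 and 1.87 CPM in other cells. The 3 genes were taken from those counted as higher in all 4 libraries, so these gaps follow from that choice.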

How the data were processed

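Single-cell RNA of mouse tracheal cells was measured in 4 libraries. The deposited matrix held raw UMI counts per gene and cell barcode, written by Cell Ranger 6.0.1 per the file headers. The build, per the submitters' processing notes, was GRCm39, and the annotation used for counting is not given in the sources used here. Of 21667 barcodes, 1308 were left out for genes or mitochondrial UMIs.

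UMIs were summed per library and kind of cells and scaled to CPM. With 1 library per genotype and no map from number to genotype, no test was run. Ratios, counts and intervals are descriptions. Log2 ratios used 10 CPM (50 CPM between the tuft1 and tuft2 sides). Thinned shares used 2000 UMIs per cell, which left out 17 tuft and 2689 other cells. Doublets were scored against 2 simulated doublets per cell, the top scores taken at 0.8% per 1000 barcodes, and not removed. Tuft cells were clustered by the Leiden method (resolution 1, 10 neighbours, 1000 genes, 15 components; scanpy 1.11.5). Free RNA was not subtracted. The sums and ratios were tested on simulated data. Named genes were the 25 with the highest smallest log2 ratio, up to 10 lower ones (6 passed), the 10 widest between libraries, gate genes and list members. Some of these genes are not reported here. The tuft cell rule and the gene lists were chosen with earlier results of these data known. Alternatives covered the gate, filters, doublets, scaling, pseudocount and libraries left out.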

Additional observations from a re-analysis of the deposited data

How the results depend on the processing

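Every count of genes depended on how tuft cells and the scale were set. The 276 higher and 6 lower genes became 519 and 37 with Scgb1a1 under 1%, 167 and 13 with no limit on it, and 974 and 395 in low-mixing cells. With 1 CPM added they were 544 and 18, with 50 CPM 66 and 2, with ratios centred on their median 166 and 31, and past a log2 ratio of 2 they were 70 and 0. Means over cells gave 475 and 135, and basal cells in place of all other cells gave 534 and 266. The lower count alone moved to 3 with 2 gate genes, 64 with cells thinned to 2000 UMIs, 23 without secretory marker UMIs and 12 against cells with no gate gene. Low-mixing cells in place of all tuft cells gave 524, 624 and 821 higher and 485, 490 and 458 lower genes against the neuroendocrine gate, the ionocyte gate and basal cells, where all tuft cells gave 148, 205 and 534 higher and 94, 101 and 266 lower. A gene past the limit in all 4 libraries is also past it in any 3. Apart from the filter on low values, leaving out 1 library could therefore only raise these counts. It gave 282 to 483 higher and 7 to 17 lower genes. The highest of both came without library 2, and without library 1 there were 13 lower genes.

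The 666 genes apart between libraries were 129 in low-mixing cells, 161 with cells thinned and 137 at a ratio of 3. They were 163 to 459 with 1 library left out: 163 without library 2, 370 without library 3 and 385 without library 4. With a library left out, the ratio of highest to lowest can hardly widen, so a lower count was built in. Shares of tuft cells moved to 1.47%, 2.38%, 2.40% and 1.75% in libraries 1 to 4 with no Scgb1a1 limit, and to 0.473%, 0.455%, 0.978% and 0.717% for low-mixing cells. Library 2 moved to 0.733% with Scgb1a1 under 1% and 0.586% with cells thinned, and library 3 to 1.16% with mitochondrial UMIs at most 10%.

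All 25 named higher genes were still counted under every alternative except basal cells as the comparison, where 24 were (all but Sox9). Leaving out 1 library, adding 1 CPM or dropping the filter on low values could not have removed any of the 25. With smallest ratios of 2.83 or more, a limit of 2 could not either. Of the 6 named lower genes, 1 was still counted with no Scgb1a1 limit and 1 with 2 gate genes, 0 against basal cells and 0 past a log2 ratio of 2, and 2 with 50 CPM added. With thinned cells and with Scgb1a1 under 1% there were 4, with mitochondrial UMIs at most 10% and with means over cells 5, and under the other alternatives 6. The mean log2 ratios of Hp and Scgb3a2 turned positive against basal cells, at 1.56 and 0.69. Of 682 values of named genes, 649 kept their direction and side of the limit, including values that could not have changed. The low-mixing cells and the comparison with cells that had no gate gene were chosen after seeing the data. The cause of these moves was not tested. No paired analysis was possible because each genotype had 1 library and no library number was tied to a genotype. Genes under 10 CPM in tuft cells rest on few UMIs, 1 UMI being 1.21 to 2.33 CPM in a library.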
